A study of Mus musculus with 12 samples.

Results

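The comparison described here set brown adipose tissue of mice lacking Zbtb7b against wild-type (WT) brown adipose tissue, with all animals kept at 22 °C. It rests on 6 of the 12 microarrays of the study, 3 from Zbtb7b knockout mice (KO) and 3 from WT mice, chosen by their labelled genotype and temperature. The other 6 arrays came from mice of the same 2 genotypes placed at 4 °C for 4 h, and they entered the fit to estimate the spread between arrays. All mice were 10-week-old males fed standard rodent chow. The labels do not say how the allele was made or in which cells the gene is lost. A gene was represented by the probe set with the highest mean over the 12 arrays among those annotated with exactly 1 symbol, which gave 22180 genes.

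A description field of the samples names liver, and in KO samples another gene, whereas the titles and the tissue and genotype fields name brown fat and Zbtb7b. The signals of defining genes were those of brown fat. The 5 genes that define brown adipocytes averaged between 11.1 and 11.5 on the log2 scale on each of the 6 arrays, while Alb, which encodes albumin, lay between 1.78 and 2.75. The titles call the samples biological replicates and the description numbers pools, so how many animals each array holds is unknown, and p-values measure the spread between these RNA samples.

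Brown adipose tissue burns fatty acids and glucose to make heat. Its mitochondria carry Ucp1, a protein that lets protons leak back across the inner membrane. Noradrenaline from sympathetic nerves drives the tissue through cAMP, which induces Ucp1 and also Dio2, the deiodinase that converts thyroxine to the active thyroid hormone inside the cell. Zbtb7b, also called ThPOK or cKrox, is a transcription factor with zinc fingers, known above all for committing thymocytes to the CD4 lineage and for silencing Cd8 genes in them.

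Values below are log2 signals after robust multi-array averaging, the authors' normalization. The medians of the 6 arrays lay between 2.63 and 2.72. Correlations across genes ranged from 0.977 to 0.98 between arrays of one genotype and from 0.972 to 0.979 between genotypes. Skeletal muscle markers differed between arrays of one genotype: the 23 markers averaged 8.64 and 7.58 on KO replicates 1 and 2 and 6.41 on WT replicate 2, against 3.57, 3.33 and 3.19 on KO replicate 3, WT replicate 1 and WT replicate 3. KO replicate 2 also stood above the other 5 arrays in several immune gene lists.

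At an adjusted p under 0.05 (limma, Benjamini-Hochberg over all genes), 122 of 22180 genes passed, which is 0.550%. Of these 59 were higher in KO (0.266% of the genes tested) and 63 lower (0.284%). The median difference of all genes was 0.0085, and 2528 genes had an unadjusted p under 0.05. The 3 KO arrays did not overlap the 3 WT arrays in any of the 122 genes, and the same held for 17.0% of all genes. The size of the difference had a median of 1.15 and ran from 0.63 to 3.71, with 77 genes beyond 1 and 16 beyond 2. A count of 36 genes, 21 higher and 15 lower, passed in each of the 6 fits that left out 1 room temperature array. These fits kept the 6 cold arrays to estimate the spread. With the 6 room temperature arrays alone 37 genes passed, 32 of them among the 122. The number called depended on the array left out: it was 50 without KO replicate 2, 63 without KO replicate 3 and 65 without WT replicate 1. The higher genes alone numbered 37 without KO replicate 1 and 37 without WT replicate 2.

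**Figure D1:**
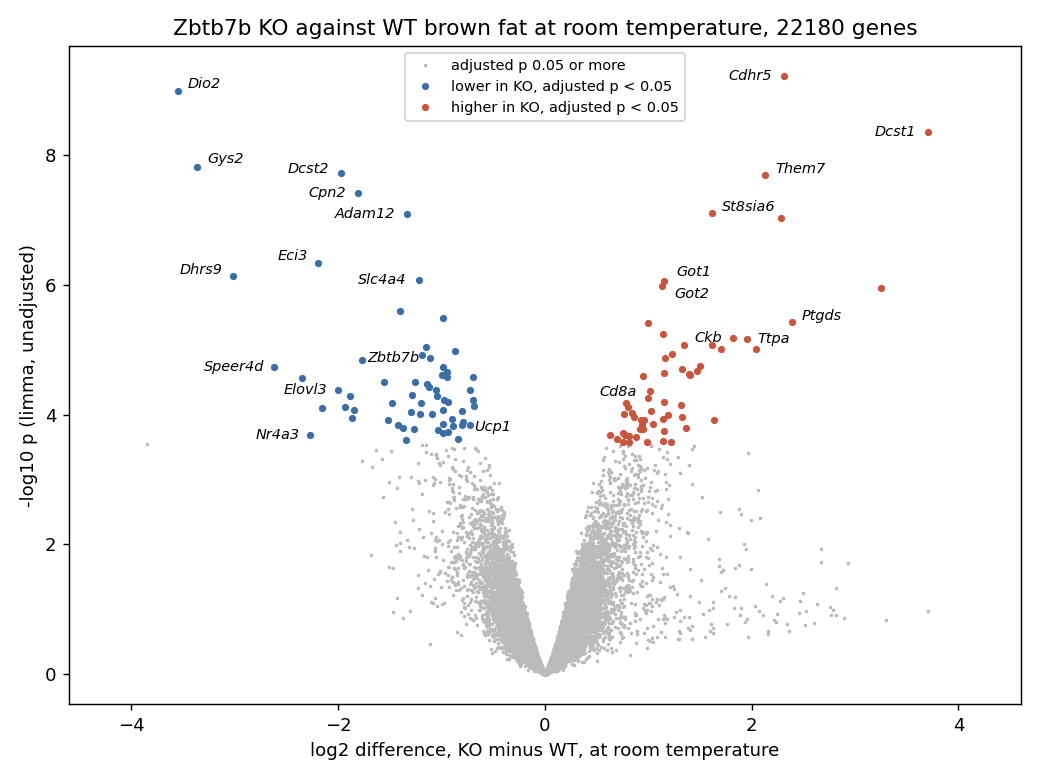
Difference between KO and WT at room temperature (log2, horizontal) against -log10 of the unadjusted limma p (vertical) for 22180 genes, with the 59 genes called higher in red and the 63 called lower in blue. Dio2 (-3.55), Gys2 (-3.36) and Dhrs9 (-3.02) lie farthest to the left among the called genes and Dcst1 (3.71) farthest to the right.

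Zbtb7b itself was lower in KO. Its signal was 4.46, 4.52 and 4.76 in WT against 3.62, 3.50 and 3.30 in KO, and the groups did not overlap. The difference of -1.11 ± 0.16 (SE) passed the test (limma adjusted p = 0.00904). The WT level of this gene was itself low. The labels give neither the change in the allele nor the position of the probes relative to it. A remaining transcript could therefore not be assessed.

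The genes beside Zbtb7b moved in both directions. On the GRCm38.p6 assembly Zbtb7b lies at chr3:89377644-89393673, next to Dcst2 at chr3:89350417-89377643 and Dcst1 at chr3:89350219-89365253, genes of the DC-STAMP family known for their part in sperm function. Dcst1 gave the largest rise among the genes that passed: 2.55, 3.05 and 2.66 in WT against 6.54, 6.38 and 6.44 in KO (difference 3.71 ± 0.25, limma adjusted p = 3.32e-05). The WT arrays stood near the array median, so no fold is given. Dcst2 was the reverse, at 5.52, 5.45 and 5.75 in WT against 3.88, 3.37 and 3.57 in KO (-1.97 ± 0.15, adjusted p = 7.71e-05). Flad1, which encodes FAD synthase and lies on the other side at chr3:89402673-89411881, was 8.54, 8.59 and 8.75 in WT against 7.99, 7.93 and 7.90 in KO (-0.69 ± 0.12, adjusted p = 0.0238). The other 7 of the 10 nearest measured genes, Gm15998, Efna4, Adam15, Gm15417, Cks1b, Shc1 and Pygo2, did not pass. Within 2 Mb of its position 4 of 126 genes tested passed, Zbtb7b itself with Dcst1, Dcst2 and Flad1, or 3.17%, against 0.550% of all genes; the window was chosen after the values were seen. Without each of the 6 arrays in turn Dcst1, Dcst2 and Zbtb7b still passed, whereas Flad1 passed in none of these fits (adjusted p from 0.0539 to 0.0999).

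The starts given for Dcst1 and Dcst2 in the RefSeq promoter table face away from each other, with Dcst1 read from the minus strand and Dcst2 from the plus strand, and the 65 bases of chr3:89365254-89365318 lie between them. The sequence of this interval is shown, on the plus strand of GRCm38.p6, because the differences of these 2 genes were opposite and it lies just upstream of both starts; no capitals are used.
Dcst1-Dcst2 interval: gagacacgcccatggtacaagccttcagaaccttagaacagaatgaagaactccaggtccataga
The listed body of Dcst2 begins before this start and overlaps that of Dcst1, as the coordinates above show, so Dcst2 may have another start, and whether this interval bears on either difference was not tested.

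The largest fall among the genes that passed was in thyroid hormone activation. Dio2 stood at 8.30, 8.47 and 8.46 in WT and at 5.32, 5.0 and 4.27 in KO. The lowest WT array lay far above the highest KO array, and the signal was 11.7-fold lower in KO (-3.55 ± 0.21, limma adjusted p = 1.14e-05). No other of the 15 measured genes of thyroid hormone activation and response passed, and the median of this list was 0.11 against 0.0085 for all genes. The receptors were at 7.88 and 7.89 for Thrb (group means of WT and KO; difference 0.01, 95% interval -0.27 to 0.28) and at 6.53 and 6.75 for Thra (0.22, -0.03 to 0.48). A second Dio2 probe set, whose mean over the 12 arrays was only 2.32, did not pass (0.94, adjusted p = 0.182 with every probe set tested on its own).

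Ucp1 was also lower, by much less. It measured 12.68, 12.41 and 12.50 in WT against 12.01, 11.61 and 11.55 in KO, a 1.74-fold lower signal without overlap (-0.80 ± 0.14, adjusted p = 0.0257). Elovl3, the fatty acid elongase that brown fat induces strongly when activated, measured 6.07, 5.25 and 5.83 in WT against 4.09, 4.16 and 2.89 in KO (-2.00 ± 0.32, adjusted p = 0.0169). These were the only 2 of the 22 measured thermogenic genes of brown adipocytes to pass, where 0.284% of all genes were called lower. Counting all members, 18 of 22 lay below 0, 8 had all KO arrays below all WT arrays (7.97% of all genes did), and the list median was -0.23. Slc25a20, the mitochondrial carnitine carrier (-0.54, adjusted p = 0.0726), and Slc27a2, a very long chain acyl-CoA synthetase (-0.76, adjusted p = 0.0904), came closest.

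Ucp1 did not keep its call without WT replicate 1 (adjusted p = 0.095), WT replicate 3 (0.0654), KO replicate 2 (0.113) or KO replicate 3 (0.102), and reached 0.0518 with the muscle mean as a covariate. Elovl3 lost its call without WT replicate 1 (0.0761) and WT replicate 3 (0.0565). Dio2 passed in every fit that left out an array and with the muscle covariate. In the fit of the 6 room temperature arrays alone Dio2 passed (limma adjusted p = 0.00434), but Ucp1 (0.132) and Elovl3 (0.101) did not.

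The regulators that define brown fat did not pass. Ppargc1a, the cAMP-induced coactivator of mitochondrial genes, averaged 9.22 in WT and 9.08 in KO (-0.14, 95% interval -0.41 to 0.13). Cidea, a lipid droplet protein of brown fat, averaged 12.10 and 11.85 (-0.25, -0.52 to 0.01). Prdm16, the brown fat determination factor, averaged 6.91 and 7.09 (0.18, -0.28 to 0.64), and Ebf2, another such factor, 9.33 and 9.19 (-0.14, -0.46 to 0.17). None of the 22 adipocyte transcription factors passed and their median was -0.022. The 7 general adipocyte markers had a median of -0.12 with none called. Among 6 hnRNP U and related RNA-binding proteins none passed, and Hnrnpu averaged 9.80 in WT and 9.57 in KO (-0.23, -0.49 to 0.04). Fgf21, a secreted hormone of activated brown fat, was below the array median in both groups at 1.86 and 1.94.

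**Figure D2:**
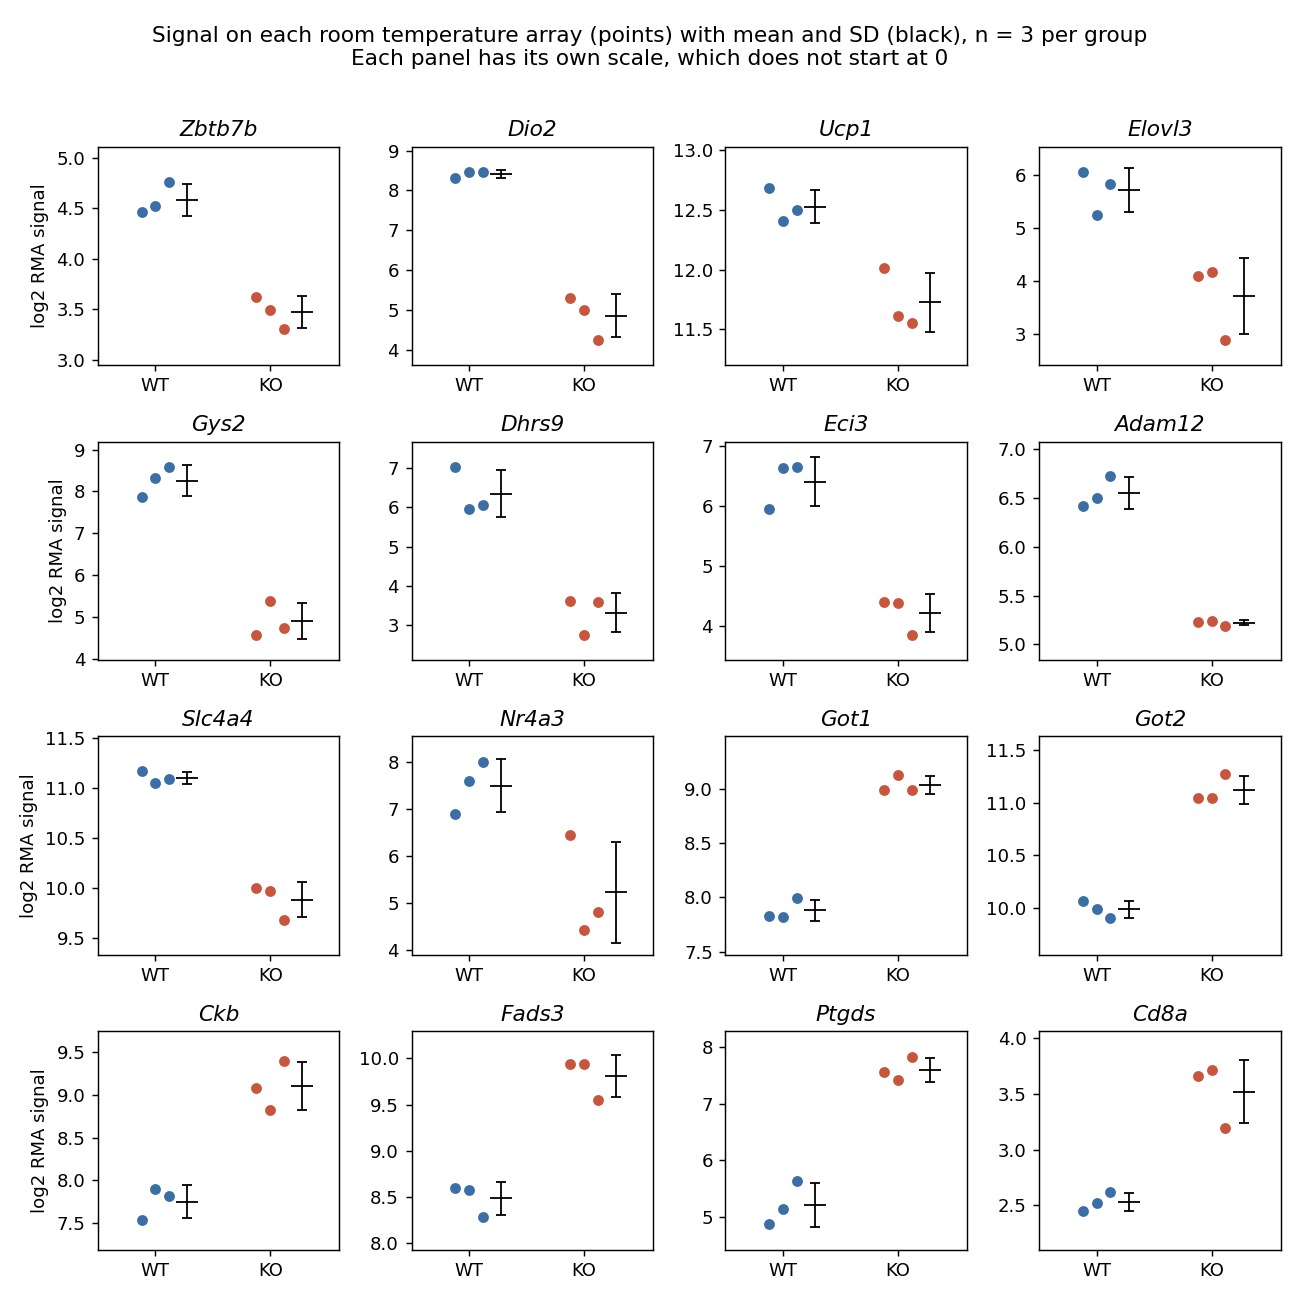
Log2 signal of 16 genes on the 3 WT and 3 KO arrays at room temperature (points), with mean and SD (black, n = 3 per group); each panel has its own vertical scale. WT and KO points do not overlap in any panel; Nr4a3 has 1 KO array at 6.45, near the lowest WT array at 6.89, and Adam12 has KO arrays within 5.19 to 5.24.

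The 3 NR4A orphan receptors, immediate-early genes that β-adrenergic signals induce in fat, had lower signals in KO, but only Nr4a3 passed. Nr4a3 was 6.89, 7.59 and 8.01 in WT against 6.45, 4.43 and 4.79 in KO (-2.27 ± 0.43, limma adjusted p = 0.041). Nr4a1 was 11.31, 11.49 and 11.68 in WT against 10.59, 9.65 and 9.33 in KO, without overlap and just outside the threshold (-1.64 ± 0.33, adjusted p = 0.056). Nr4a2 was 8.99, 8.45 and 8.31 against 8.01, 7.14 and 6.26 (-1.45, adjusted p = 0.17). Nr4a3 was the only 1 of 39 measured cAMP and immediate-early genes to pass, and the list median was -0.074. The call depended on single arrays: KO replicate 1 lay close to WT, and the gene did not pass without WT replicate 1, WT replicate 2, WT replicate 3, KO replicate 2 or KO replicate 3, with adjusted p of 0.0556, 0.12, 0.112, 0.14 and 0.136. Fos, the immediate-early gene, was at 3.41, 2.44 and 2.58 in WT against 3.25, 5.47 and 3.21 in KO, with KO replicate 2 standing apart.

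The promoters of Dio2, Nr4a3 and Ucp1, which all fell and are known cAMP targets, are shown with matches to the cAMP response element and its half-site in capitals. Each is the 250 bases before the RefSeq start on GRCm38.p6, 5′ to 3′ on the gene's own strand: chr12:90739039-90739288 (minus strand) for Dio2, chr4:48045055-48045304 (plus strand) for Nr4a3 and chr8:83290098-83290347 (plus strand) for Ucp1.
Dio2: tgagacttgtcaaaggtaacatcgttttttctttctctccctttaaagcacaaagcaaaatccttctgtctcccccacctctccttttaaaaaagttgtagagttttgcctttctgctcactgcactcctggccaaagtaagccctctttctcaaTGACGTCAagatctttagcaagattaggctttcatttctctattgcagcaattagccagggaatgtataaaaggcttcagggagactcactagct
Nr4a3: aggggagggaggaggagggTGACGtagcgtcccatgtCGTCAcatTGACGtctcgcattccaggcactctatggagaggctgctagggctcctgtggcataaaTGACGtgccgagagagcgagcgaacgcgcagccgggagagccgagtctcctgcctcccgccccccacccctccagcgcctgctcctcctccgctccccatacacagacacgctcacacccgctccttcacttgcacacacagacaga
Ucp1: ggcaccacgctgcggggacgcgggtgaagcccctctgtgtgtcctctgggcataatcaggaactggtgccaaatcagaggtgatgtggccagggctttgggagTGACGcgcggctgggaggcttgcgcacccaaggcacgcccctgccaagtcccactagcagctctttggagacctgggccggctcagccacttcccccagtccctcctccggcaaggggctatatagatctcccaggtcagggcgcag
The Dio2 promoter holds a full element, TGACGTCA, beginning 95 bases before the start. Nr4a3 has 4 half-sites (TGACG on either strand), at 231, 213, 205 and 147 bases before the start, and Ucp1 has 1 at 147. The 250 bases before a start were on hand for 98 of the 122 called genes. In them the half-site stood in 18 of 48 genes that fell (37.5%) and in 6 of 50 that rose (12%). Of 16990 measured genes with such a stretch 23.2% held it. The full element, which contains the half-site, stood in 2 of the 48 (Dio2 and Scgb2b20) and in 0 of the 50, against 2.3% of measured genes. The NR4A binding element AAAGGTCA, searched on both strands, stood in 0 of 48 and 0 of 50, against 1.42%. These are letter matches and were not tested.

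Single enzymes of fatty acid metabolism changed. Eci3, a peroxisomal enoyl-CoA isomerase, was 5.95, 6.63 and 6.66 in WT against 4.41, 4.39 and 3.86 in KO, a 4.57-fold lower signal (-2.19 ± 0.23, adjusted p = 0.000932), and it kept its call without any single array. It was the only 1 of 23 measured peroxisomal fatty acid oxidation genes to pass. Of that list 18 lay below 0, 6 without overlap (7.97% of all genes did), and the median was -0.28. Acaa1b, the peroxisomal thiolase, came next at 4.46, 4.21 and 4.50 in WT against 3.56, 2.76 and 2.37 in KO (adjusted p = 0.056). None of the 22 mitochondrial fatty acid oxidation genes passed (median -0.13, 15 below 0), and none of the 22 genes of lipid uptake, droplets and lipolysis (median -0.18, 19 below 0). The lipases Pnpla2 and Lipe had group means within 0.01 of each other, with 95% intervals of -0.22 to 0.22 and -0.38 to 0.38.

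Among the genes that build and reshape lipids, Hsd17b12, the ketoacyl-CoA reductase of the elongation cycle, fell with Elovl3, from 9.53, 9.25 and 9.58 to 8.75, 8.75 and 8.50 (-0.79 ± 0.14, adjusted p = 0.0312). Fads3, a desaturase, rose from 8.60, 8.58 and 8.28 to 9.94, 9.94 and 9.55, a 2.50-fold higher signal (1.32 ± 0.20, adjusted p = 0.0116). The 20 measured elongation and desaturation genes had a median of 0.026. Mfsd2a, the transporter that takes up lysophosphatidylcholine, fell (-1.93, adjusted p = 0.0241) and Gdpd1, a lysophospholipase D, rose (1.70, adjusted p = 0.00784). These were the only 2 of 27 phospholipid and lysophospholipid genes to pass, against 0.550% of all genes. None of the 23 genes of fatty acid and triacylglycerol synthesis passed, and their median was 0.034. All KO arrays lay below all WT arrays in 9 of them, as in 7.97% of all genes, and above in 0. These 9 were acyltransferases of the path from glycerol phosphate or monoacylglycerol to triacylglycerol: Dgat1, Dgat2, Mogat1, Gpam, Gpat3, Gpat4, Agpat2, Agpat3 and Agpat5. Their differences ran from -0.93 for Mogat1 (adjusted p = 0.0904) to -0.25 for Dgat2. Gpam, the mitochondrial enzyme that adds the first acyl chain, was 10.51, 10.39 and 10.61 in WT against 10.08, 10.17 and 9.92 in KO (-0.44, adjusted p = 0.16). Without KO replicate 3 another 9 members of the list lay above WT without overlap, as 14.2% of all genes did without that array. Fasn, the fatty acid synthase, ranged from 11.68 to 12.36 in WT and from 11.85 to 12.75 in KO, with overlap.

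Further lipid enzymes passed; Lipa, Hmgcs1 and Ddhd2 were chosen after their values were seen. Lipa, the lysosomal acid lipase, was 10.34, 10.11 and 10.21 in WT against 9.35, 9.27 and 9.34 in KO (-0.90, adjusted p = 0.0298). Hmgcs1, the cytosolic synthase at the start of cholesterol synthesis, was 9.86, 9.11 and 9.29 against 8.42, 8.14 and 8.57 (-1.04, adjusted p = 0.0369). Ddhd2, a triglyceride and phospholipid hydrolase, was 9.40, 9.14 and 9.28 against 8.56, 8.25 and 8.16 (-0.95, adjusted p = 0.0126). Them7, of the thioesterase superfamily, rose from 4.28, 4.45 and 4.83 to 6.70, 6.70 and 6.54 (2.13 ± 0.17, adjusted p = 7.71e-05). Fads3 lost its call without KO replicate 2 (0.0572); Mfsd2a without WT replicate 1 (0.0641), KO replicate 2 (0.11) or KO replicate 3 (0.0958); Ddhd2 without those same 3 arrays (0.0573, 0.0656 and 0.0623). Of the 6 fits without 1 array, Hsd17b12 and Hmgcs1 passed only in that without WT replicate 2, with adjusted p of up to 0.12 and 0.145 in the other 5, and Lipa passed in none (0.0695 to 0.113).

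The next largest fall was in glycogen synthesis. Gys2, a glycogen synthase best known from liver, was 7.87, 8.33 and 8.59 in WT against 4.57, 5.39 and 4.74 in KO, a 10.3-fold lower signal (-3.36 ± 0.26, limma adjusted p = 7.71e-05), and it passed without any single array. Gys1, the form found in muscle and most other tissues, averaged 9.99 in both groups (95% interval of the difference -0.23 to 0.23). No other of the 25 measured glycogen genes passed, and the list median was 0.064. None of 20 genes of glucose uptake and glycolysis passed (median 0.013).

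Both glutamate-oxaloacetate transaminases, the enzymes of the malate-aspartate shuttle that exchange amino groups between aspartate and glutamate, rose together. Cytosolic Got1 was 7.83, 7.82 and 8.0 in WT against 8.99, 9.13 and 8.99 in KO (1.15 ± 0.13, adjusted p = 0.00138). Mitochondrial Got2 was 10.07, 9.99 and 9.91 in WT against 11.04, 11.05 and 11.27 in KO (1.13 ± 0.13, adjusted p = 0.00155). The rises were 2.23-fold and 2.19-fold, and both kept their call without any single array and with the muscle covariate. A second Got2 probe set gave 0.70 and did not pass (adjusted p = 0.129 with every probe set tested on its own).

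Pdp2, a phosphatase that activates pyruvate dehydrogenase, fell from 7.51, 7.31 and 7.33 to 6.57, 6.42 and 6.66 (-0.84 ± 0.16, adjusted p = 0.0452), but passed in none of the fits without 1 array (0.0845 to 0.157). With the transaminases it made 3 of 31 pyruvate dehydrogenase and tricarboxylic acid cycle genes that passed, against 0.550% of all genes. The list median was -0.039. None of 48 measured respiratory chain and ATP synthase genes passed; 36 lay below 0 but the median was -0.049. Cox6b2, the testis form of a cytochrome c oxidase subunit that the list does not hold, rose from 6.46, 6.46 and 6.67 to 8.02, 7.63 and 8.45 (1.5 ± 0.22, adjusted p = 0.0112).

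Ckb, the brain-type creatine kinase that also works in brown fat, rose 2.54-fold, from 7.54, 7.91 and 7.82 to 9.08, 8.83 and 9.39 (1.35 ± 0.18, limma adjusted p = 0.00754). It was the only 1 of 20 creatine and calcium cycling genes to pass, with a list median of 0.036. Several members of that list are muscle genes with large differences that did not pass, such as Ckm, the muscle creatine kinase, at 4.45, 8.39 and 3.58 in WT against 10.47, 9.30 and 3.73 in KO. The highest Ckb array in KO was replicate 3, where the muscle markers averaged 3.57, and the highest in WT was replicate 2, where they averaged 6.41. With the muscle mean as a covariate Ckb passed. Whether muscle in the samples bears on its rise was not tested. Cryab, a small heat shock protein abundant in muscle, rose from 8.60, 9.03 and 8.37 to 10.20, 9.80 and 10.22 (1.41 ± 0.21, adjusted p = 0.0123), with the same arrays highest, but lost its call without WT replicate 1 (0.0539) or KO replicate 3 (0.0605).

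Of 36 measured genes of retinoid, vitamin E and aldehyde metabolism 3 passed, against 0.550% of all genes, each with a large difference. Dhrs9, a dehydrogenase that oxidizes retinol, was 7.03, 5.95 and 6.05 in WT against 3.62, 2.77 and 3.59 in KO (-3.02 ± 0.33, adjusted p = 0.00136). Aldh3b2, an aldehyde dehydrogenase bound to lipid droplets, was 7.70, 7.24 and 7.15 against 5.08, 5.82 and 4.14, a 5.10-fold lower signal (-2.35 ± 0.36, adjusted p = 0.0126). Ttpa, the vitamin E transfer protein, was 3.08, 3.85 and 3.23 in WT against 5.04, 5.0 and 5.99 in KO (1.96 ± 0.26, adjusted p = 0.00673). The list median was -0.051. Dhrs9 and Ttpa passed without any single array, and Aldh3b2 did not pass without WT replicate 1 (0.06). In the fit of the 6 room temperature arrays alone Ttpa (limma adjusted p = 0.0729) and Aldh3b2 (0.0791) did not pass.

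Prostaglandin and lipoxygenase genes that passed all rose. Ptgds, the lipocalin-type prostaglandin D synthase, was 4.87, 5.14 and 5.64 in WT against 7.56, 7.42 and 7.83 in KO, a 5.23-fold higher signal (2.39 ± 0.30, limma adjusted p = 0.00428) that passed without any single array. Hpgd, which inactivates prostaglandins, was 5.95, 5.94 and 5.99 against 6.79, 6.68 and 7.01 (0.87 ± 0.15, adjusted p = 0.0287). Alox5ap, the activating protein of leukotriene synthesis in myeloid cells, was 5.45, 5.51 and 5.47 against 6.09, 6.35 and 6.43 (0.81 ± 0.16, adjusted p = 0.049). Ptger3, a receptor for prostaglandin E abundant in brown fat, was the other way at 8.58, 8.01 and 7.96 against 7.21, 7.10 and 6.67, outside the threshold (-1.19, adjusted p = 0.0517). The genes that passed are 3 of 28 measured members, where 0.266% of all genes were called higher, and the list median was 0.092. Hpgd and Alox5ap passed in none of the fits without 1 array, with adjusted p of up to 0.112 and 0.155.

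Other genes that fell have roles in signalling and transport. Adam12, a metalloprotease that sheds growth factors, was 6.42, 6.50 and 6.73 in WT against 5.23, 5.24 and 5.19 in KO, a 2.51-fold lower signal (-1.33 ± 0.12, adjusted p = 0.000198). Slc4a4, the sodium bicarbonate cotransporter, was 11.17, 11.05 and 11.09 against 10.0, 9.97 and 9.69, and had the highest signal of the genes in this paragraph, which is no comparison of abundance (-1.22 ± 0.13, adjusted p = 0.00138). Cpn2, the regulatory subunit of carboxypeptidase N, was 7.60, 7.38 and 7.67 against 5.66, 5.87 and 5.71 (-1.80 ± 0.15, adjusted p = 0.000121). All 3 passed without any single array. Noct, which encodes nocturnin, fell (-1.89, adjusted p = 0.0194), as did the fatty acid receptor Ffar4 (-1.37, adjusted p = 0.035) and the chemokine-scavenging receptor Ackr3 (-1.25, adjusted p = 0.0141). Noct lost its call without WT replicates 1 (0.0773) or 3 (0.0603), Ackr3 without WT replicate 1 (0.0594), KO replicate 2 (0.0696) or KO replicate 3 (0.0637), and Ffar4 passed only without KO replicate 1, with adjusted p of up to 0.134 otherwise. Lgr6, a receptor for R-spondins, was 8.65, 8.82 and 8.64 in WT against 7.63, 6.82 and 7.39 in KO (-1.42 ± 0.26, adjusted p = 0.0332) and also passed only without KO replicate 1 (up to 0.121 otherwise). None of 19 clock genes passed (median 0.081).

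Cish, a feedback inhibitor induced by STAT5, was 6.16, 6.08 and 5.61 in WT against 4.87, 4.64 and 4.80 in KO (-1.19 ± 0.17, adjusted p = 0.00868), and a second probe set gave -1.99 (adjusted p = 0.0412 with every probe set tested on its own). It was the only 1 of 22 genes of growth hormone, STAT5 and Socs signalling to pass, in a list with a median of 0.16. Its relative Socs2 was 6.16, 6.43 and 6.59 against 7.33, 6.79 and 7.07, with the KO arrays above the WT arrays but outside the threshold (adjusted p = 0.132).

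Other large rises were in genes with varied roles. Cdhr5, a cadherin of the intestinal brush border, was 5.50, 5.65 and 5.58 in WT against 7.89, 7.79 and 8.0 in KO, and its 4.98-fold rise shared the smallest adjusted p with Dio2 (2.32 ± 0.13, limma adjusted p = 1.14e-05). Prss12, the extracellular protease neurotrypsin, rose from 4.80, 5.13 and 4.18 to 6.58, 6.44 and 7.22 (2.04 ± 0.28, adjusted p = 0.00784). St8sia6, a sialyltransferase, rose from 5.54, 5.72 and 6.0 to 7.21, 7.40 and 7.49 (1.61 ± 0.14, adjusted p = 0.000198). Casp12, a caspase tied to stress of the endoplasmic reticulum, rose from 4.68, 4.36 and 4.93 to 6.18, 7.10 and 6.15 (1.82 ± 0.24, adjusted p = 0.00661) and was the only 1 of 25 genes of that stress response to pass (median 0.053). Each of these 4 passed without any single array. With the 6 room temperature arrays alone Casp12 (limma adjusted p = 0.0652) and Prss12 (0.0541) did not pass. Of 27 adipokines and brown fat secreted factors 1 passed, Fgf13, an intracellular relative of the fibroblast growth factors (1.64, adjusted p = 0.0301), which passed only without KO replicate 3 (up to 0.117 otherwise) and had that array lowest in KO at 3.98. None of 29 extracellular matrix genes (median 0.018) and none of 28 cell cycle genes passed; 20 of the cell cycle genes averaged under 4, and their median was 0.23.

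Further genes among the 20 largest rises and 20 largest falls had roles apart from these pathways. Cntnap1, a protein of the axon beside the node of Ranvier, was 7.88, 7.57 and 7.54 in WT against 6.58, 6.20 and 6.01 in KO (-1.40 ± 0.17, limma adjusted p = 0.00327). Odf3l1, named for its likeness to a sperm tail fibre protein, was 6.35, 6.66 and 6.45 against 5.10, 5.0 and 4.05 (-1.77 ± 0.25, adjusted p = 0.00949). Both passed without any single array and did not overlap between the genotypes. Odf3l1 did not pass with the 6 room temperature arrays alone (limma adjusted p = 0.0694). Synpo2, an actin-binding protein of muscle, was 4.49, 4.56 and 3.97 in WT against 6.17, 5.40 and 5.64 in KO (1.40 ± 0.21, adjusted p = 0.0123). Extl1, a glycosyltransferase of the exostosin family, was 2.37, 2.76 and 3.09 against 4.70, 4.06 and 4.29 (1.61 ± 0.22, adjusted p = 0.00754), and Baiap2l1, an actin regulator with a membrane-bending domain, was 3.32, 3.30 and 3.42 against 4.72, 4.19 and 4.81 (1.23 ± 0.17, adjusted p = 0.0085). These 3 rises also passed without any single array, although Extl1 and Baiap2l1 averaged under 4 in WT. With the 6 room temperature arrays alone Synpo2 (limma adjusted p = 0.0887), Extl1 (0.0546) and Baiap2l1 (0.0604) did not pass.

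The calls of the remaining 8 depended on single arrays. Anxa8, an annexin, fell from 6.06, 6.09 and 6.81 to 4.49, 4.55 and 4.38 (-1.85 ± 0.32, adjusted p = 0.0255) but passed in none of the fits without 1 array (0.0553 to 0.0952). Pgap6 fell (-1.48, adjusted p = 0.0224) and lost its call without WT replicate 1 (0.0504), WT replicate 2 (0.0789) or WT replicate 3 (0.0727). Speer4d (-2.61, adjusted p = 0.0112; 0.0557 without KO replicate 2) and Speer4cos (-2.15, adjusted p = 0.0248; up to 0.11) belong to a family of near-identical testis genes, so that their probes may not tell the members apart. Igkv5-43, an immunoglobulin light chain segment, fell (-1.87, adjusted p = 0.0293; up to 0.117). Among the rises, Adamtsl5, a secreted protein of the microfibril matrix, passed only without WT replicate 1 (1.32, adjusted p = 0.0291; up to 0.117), Smim24 lost its call in 4 of the 6 fits (1.32, adjusted p = 0.0232; up to 0.0918) and Lrrc74b without WT replicate 1 (1.47, adjusted p = 0.012; 0.0529). Speer4cos and Igkv5-43 also lost their call in 4 of the 6 fits.

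**Figure D3:**
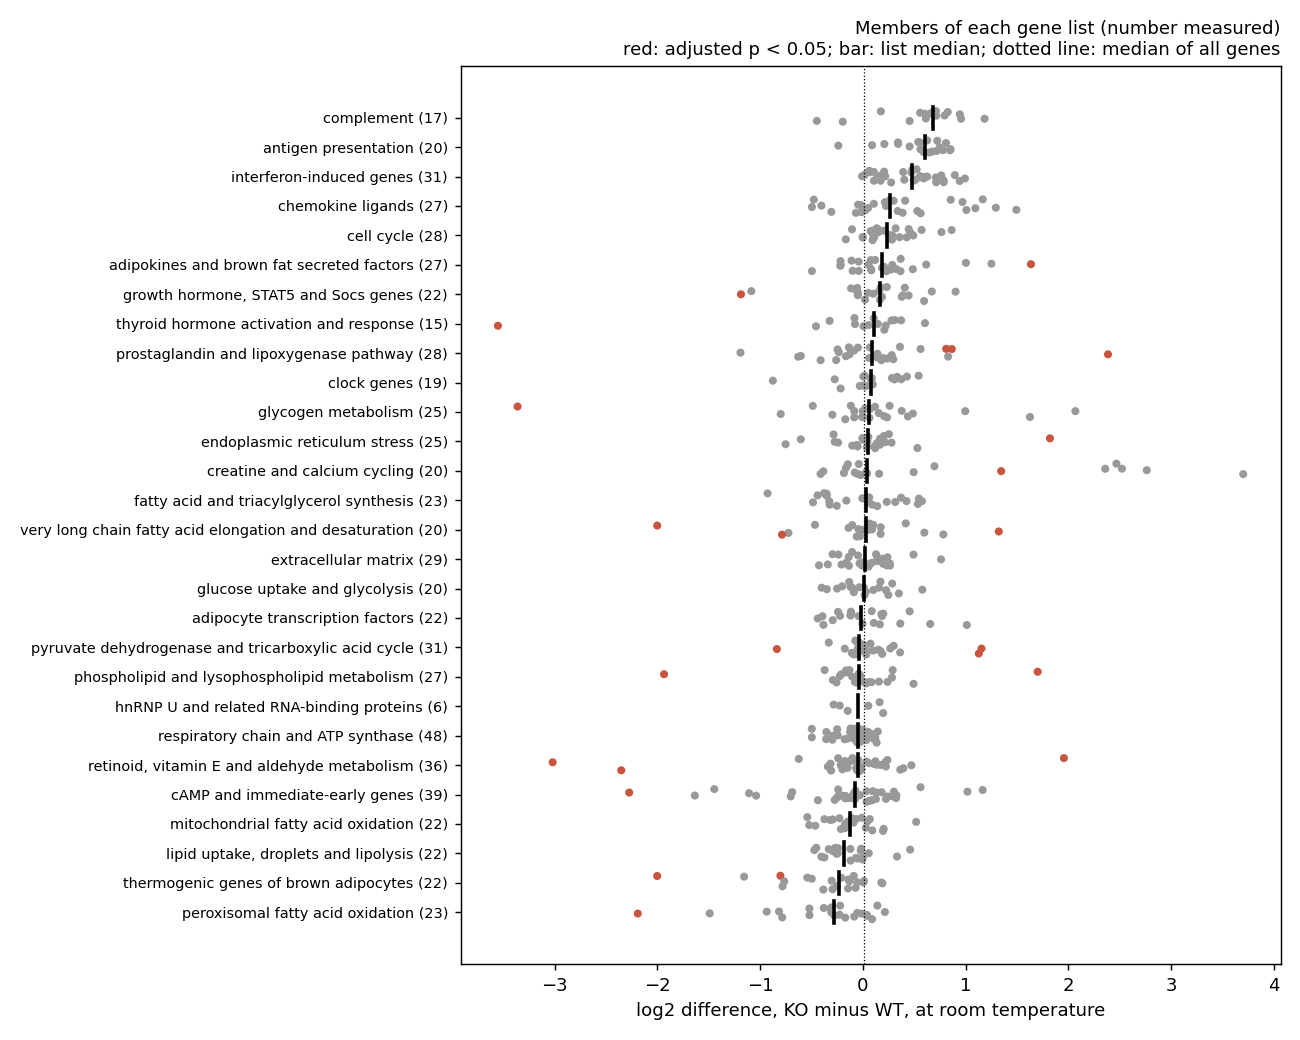
Difference between KO and WT at room temperature (log2, horizontal) for the measured members of 28 gene lists (rows, number measured in parentheses), with genes at adjusted p under 0.05 in red, list medians as black bars and the median of all genes, 0.0085, as a dotted line. Most lists sit at the line with single called genes far from it, such as Dio2 and Gys2; complement, antigen presentation and interferon-induced genes have the highest medians (0.68, 0.61 and 0.48) with no called member.

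Cd8a, the CD8 co-receptor chain, was 2.45, 2.52 and 2.62 in WT against 3.66, 3.71 and 3.19 in KO (0.99 ± 0.16, limma adjusted p = 0.0208), low on the scale in both groups. The CD4 co-receptor Cd4 was 3.33, 3.02 and 3.27 against 3.49, 3.71 and 2.97, with overlap (0.18, 95% interval -0.42 to 0.78). Cd8a was the only called gene among 10 CD8 T cell markers. All 10 lay above 0 with a median of 0.53, which was 0.21 without KO replicate 2 and 0.32 without WT replicate 2. The CD8 marker means on the arrays were 2.83, 2.45 and 2.90 in WT against 3.07, 3.87 and 3.03 in KO, so that KO replicate 2 stood apart from the other 5. The 7 CD4 T cell markers had a median of 0.014 and no called gene. Cd8a did not pass without WT replicate 1 (0.0773), WT replicate 2 (0.0698), KO replicate 1 (0.0726) or KO replicate 2 (0.1). In bulk tissue more cells of a type and more RNA per cell cannot be told apart, here and in the lists that follow.

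No macrophage marker passed, although most lay above 0. Of 19 measured macrophage markers 15 lay above 0 and 11 had all KO arrays above all WT arrays, as 9.0% of all genes did, and the median was 0.63 (0.44 without KO replicate 2). The array means of the list were 5.57, 5.30 and 5.52 in WT against 5.84, 6.11 and 5.89 in KO and did not overlap. Cd68, the lysosomal macrophage protein, was 6.27, 5.91 and 6.39 against 7.07, 7.30 and 6.91 (0.90, adjusted p = 0.0838). Some genes known from immune cells passed outside the list; they belong to no list fixed here and were named after their values were seen. Examples are Clec4a3, a C-type lectin receptor (5.48, 5.59 and 5.79 against 6.75, 6.96 and 6.57; 1.15 ± 0.15, adjusted p = 0.00603), and F13a1, the A subunit of coagulation factor XIII (6.0, 5.55 and 5.59 against 6.86, 6.95 and 6.75; 1.14 ± 0.20, adjusted p = 0.0298). Clec4a3 passed without any single array, and F13a1 only without WT replicate 1, with adjusted p of up to 0.115 otherwise. Others were Igsf6 (1.22, adjusted p = 0.049), Cd180, a Toll-like receptor homologue of B cells and myeloid cells (0.99, adjusted p = 0.049), Tlr9, the receptor for unmethylated DNA (0.93, adjusted p = 0.0298), and Cyth4, a cytohesin of blood cells (0.81, adjusted p = 0.0241). Without 1 array, Igsf6 and Tlr9 passed in none of the 6 fits (up to 0.161 and 0.113), Cd180 only without WT replicate 2 (up to 0.166) and Cyth4 only without WT replicate 1 (up to 0.11).

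Complement genes, many of them made by macrophages, had the highest median of the pathway lists. Of 17 measured, 15 lay above 0 and none passed, with a median of 0.68 (0.54 without KO replicate 2). All KO arrays lay above all WT arrays in 10 of them, as in 9.0% of all genes. The same share of all genes applies to the counts without overlap in the lists that follow. C1qb, a chain of the first complement component, was 7.50, 7.30 and 7.62 in WT against 8.65, 8.87 and 8.45 in KO (1.18, adjusted p = 0.065). Antigen presentation genes had 19 of 20 above 0 and 10 without overlap, with a median of 0.61 that was 0.20 without KO replicate 2. Psmb8, an immunoproteasome subunit of that list, was 6.44, 6.06 and 6.49 in WT against 6.43, 8.09 and 6.64 in KO, with KO replicate 2 alone standing apart. Interferon-induced genes had 30 of 31 above 0 and 7 without overlap, with a median of 0.48 that was 0.19 without that array. Both medians moved by more than 1.5 times when KO replicate 2 was left out. Of 27 chemokine ligands 8 were higher without overlap and none passed (median 0.26, 0.16 without KO replicate 2).

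The other cell types that the tissue could hold were measured in the same way. Endothelial (median -0.030), mural and smooth muscle (-0.044), dendritic cell (-0.080), mast cell and eosinophil (0.047), mesothelial (0.071), lymphatic endothelial (0.081), white adipocyte (0.066), B cell (0.14), general T cell (0.16), preadipocyte and fibroblast (0.26), Schwann cell and nerve (-0.20), neutrophil (0.42) and hepatocyte (-0.13) lists held no gene that passed, and neither did the 1 measured erythroid marker. Several of these medians rested on 1 array. Without KO replicate 2 the general T cell median was 0.032 and that of neutrophils 0.25, whereas that of preadipocytes and fibroblasts was 0.46. The preadipocyte median was 0.16 without KO replicate 1 or KO replicate 3 and 0.17 without WT replicate 2. The B cell median was 0.015 without KO replicate 3, the Schwann cell median -0.0049 without WT replicate 1, the hepatocyte median -0.041 without WT replicate 3, and the general T cell median 0.11 without WT replicate 2. Of all 34 lists with a median within 0.2 of 0, 14 changed sign and another 18 moved by over 1.5 times when some single array was left out. Skeletal muscle markers had the highest median, 2.36, with all 23 above 0, but only 1 without overlap and none called; the median was 1.32 without KO replicate 1 and 3.92 without KO replicate 3. Acta1, skeletal muscle actin, was 4.50, 8.85 and 4.83 in WT against 10.88, 9.77 and 3.99 in KO, so the groups overlapped fully. The summed level of the muscle list ran from 8.70 to 11.70 in WT and from 8.71 to 13.92 in KO. With the muscle mean as a covariate 102 genes passed, among them 76 of the 122.

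**Figure D4:**
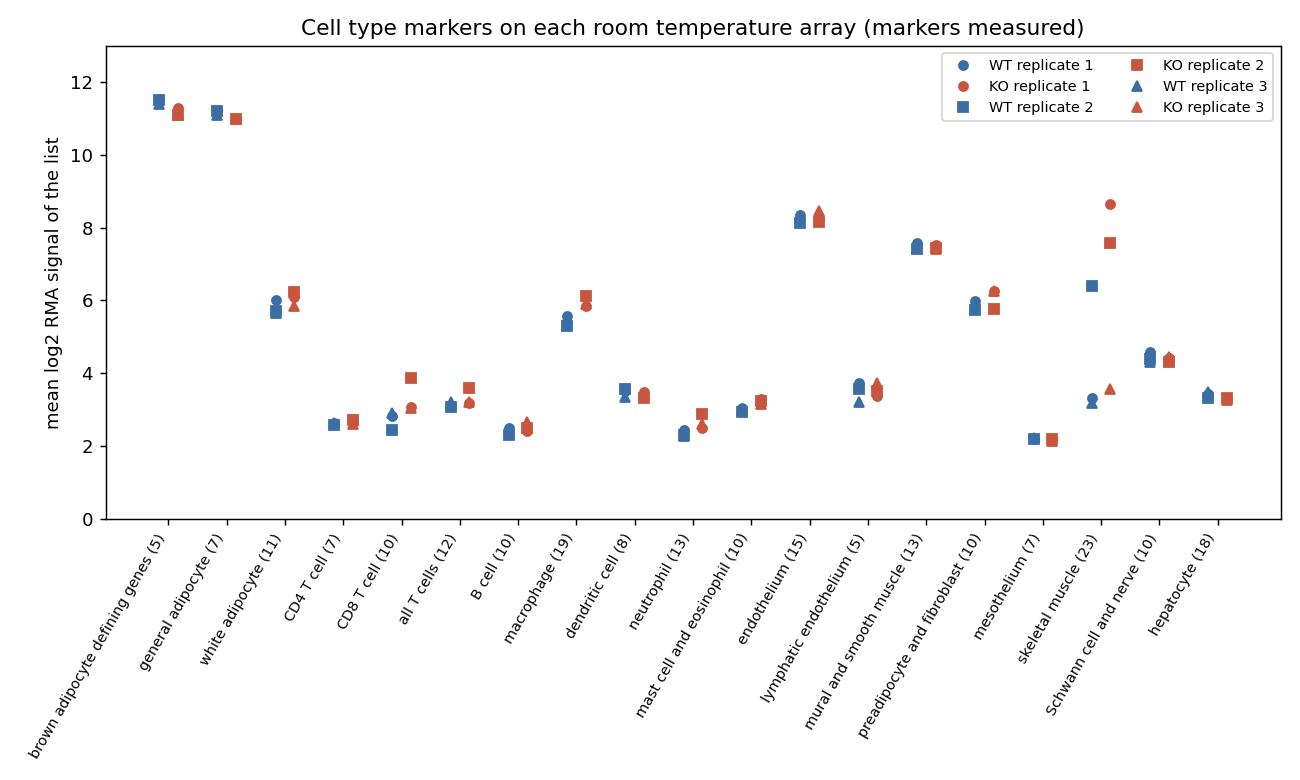
Mean log2 signal of the markers of 19 cell types (horizontal axis, markers measured in parentheses) on each room temperature array, WT in blue and KO in red, with the symbol giving the replicate number. Skeletal muscle varies most between arrays, from 3.19 to 8.64, and the macrophage means of the 3 KO arrays (5.84 to 6.11) lie above those of the 3 WT arrays (5.30 to 5.57).

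To see which differences depended on temperature, the same genes were measured after 4 h at 4 °C in other animals. There 202 genes passed, 0.911% of those tested, and 27 of the 122 room temperature genes were among them with the same direction, 22.1% of the room temperature calls and 13.4% of the cold calls. They included Zbtb7b (-1.30 in the cold), Dcst1 (3.70), Dcst2 (-1.57), Cdhr5 (2.50), Them7 (2.12), Eci3 (-2.42), Ptgds (1.79), St8sia6 (1.39), Cpn2 (-0.91), Got2 (0.80) and Gys2 (-1.48). Dcst1, Cdhr5, Them7 and Eci3 had nearly equal differences at both temperatures (interaction estimates of -0.01, 0.19, -0.01 and -0.23, limma adjusted p of 0.996, 0.753, 0.992 and 0.833).

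The test of the difference between temperatures passed for 6 genes (0.0271%), of which 4 were called at room temperature. In the cold Dio2 stood at 11.66, 11.66 and 11.75 in WT and at 11.56, 11.70 and 11.38 in KO, and the groups overlapped (-0.14 in the cold; interaction 3.41, limma adjusted p = 0.0019). Adam12 differed by -1.33 at room temperature and by -0.16 in the cold (interaction 1.17, adjusted p = 0.0453). Tmem82, a transmembrane protein, and Olfr519, an olfactory receptor gene, changed direction, at -1.27 and -0.98 at room temperature and 1.51 and 0.94 in the cold (adjusted p of 0.0135 and 0.00483), but both stood under 4 on every room temperature array. Socs2, not called at room temperature, differed by 0.67 there and by -1.20 in the cold (interaction -1.87, adjusted p = 0.0301). Aloxe3, an epidermal lipoxygenase, differed by -0.25 and 1.93 (interaction 2.18, adjusted p = 0.00475).

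Several other genes had smaller differences in the cold without passing this test. Got1 differed by 1.15 at room temperature and by -0.05 in the cold (interaction adjusted p = 0.0548), Slc4a4 by -1.22 and -0.08 (0.0622), Cd8a by 0.99 and -0.35 (0.0695) and Dhrs9 by -3.02 and -0.46 (0.0766). Ucp1 differed by -0.80 and -0.11 (0.282). Since the 122 genes were selected at room temperature, the count with a smaller difference in the cold, 110, is a description only.

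**Figure D5:**
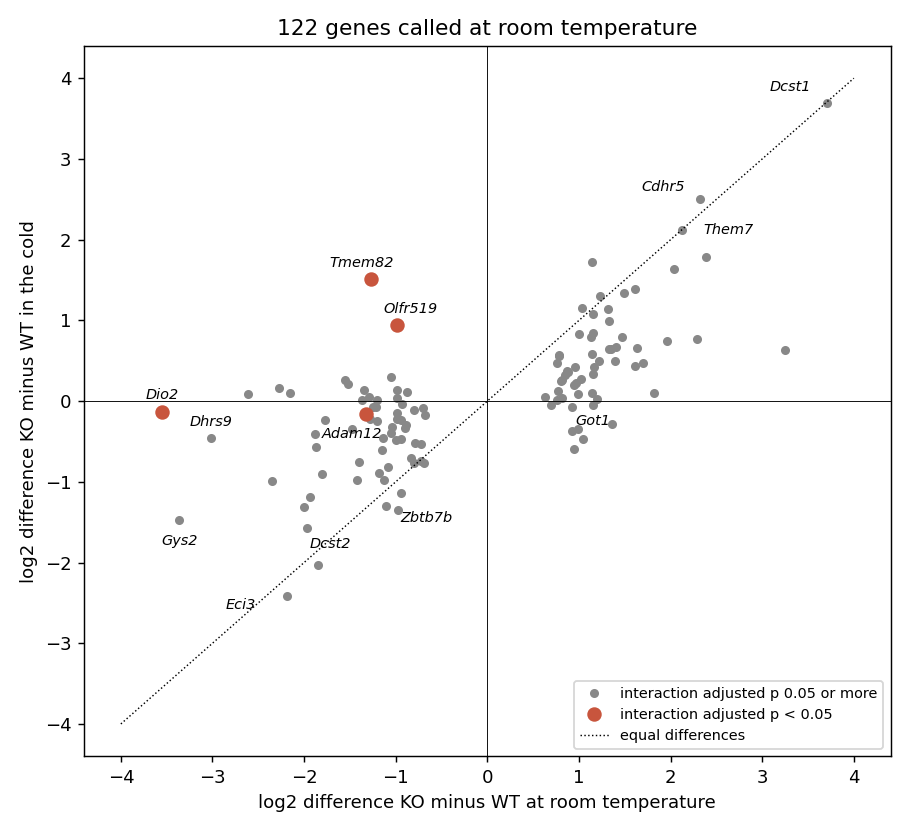
Difference between KO and WT at room temperature (log2, horizontal) against that in the cold (log2, vertical) for the 122 genes called at room temperature; the dotted line marks equal differences and the 4 red points passed the interaction test. Dcst1, Cdhr5, Them7 and Eci3 lie near the line, while Dio2 and Adam12 lie near 0 in the cold.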

How the data were processed

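The deposited values were log2 signals that the authors had made by robust multi-array averaging (RMA), with oligo, RMA and limma named in the submitters' processing notes; background correction and normalization were therefore already done across the arrays, and no read depth exists. The number of arrays, 3 per group, limits the precision. Of 41345 probe sets, 23521 had 1 gene symbol, 1814 several and 16010 none, and those without exactly 1 were left out. The 22180 genes were fitted with limma 3.58.1 in R 4.3.3 with 1 mean for each of the 4 groups over 12 arrays, and the Benjamini-Hochberg adjustment of p-values covered all of them. Intervals are 95% and no fold was given for a group mean under 4. The fit was tested on simulated data.

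Named genes were Zbtb7b, the 20 largest rises and 20 largest falls that passed (predicted genes, small RNAs and chemosensory receptors left out), list members that passed or had the smallest p, a short set always given, and Zbtb7b's neighbours; others, such as Alb, Acta1, Ckm, Gys1, Fasn, Pnpla2, Lipe, Fos, Psmb8 and Thrb, were named after their values were seen. The members and lists were chosen with earlier results of these data known. List counts and medians were not tested. Gene positions and promoters came from RefSeq (GRCm38.p6).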

Additional observations from a re-analysis of the deposited data

Results flagged for a closer look

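In 6 genes the effect of the genotype differed between the temperatures by the interaction test (limma, adjusted p under 0.05). The difference between KO and WT in the cold minus that at room temperature was 3.41 for Dio2, 1.17 for Adam12, 2.78 for Tmem82, 1.93 for Olfr519, 2.18 for Aloxe3 and -1.87 for Socs2.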

How the results depend on the processing

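The main fit called 122 genes at room temperature (59 higher, 63 lower) and 6 in the interaction. A test for a change beyond 1.5-fold, rather than for any change, left 14 (7 higher, 7 lower, 1 in the interaction). The smallest of the 122 differences was itself 1.55-fold, so the lost genes are those whose change was not shown to exceed 1.5-fold. Using only the 6 room temperature arrays left 37 (18 and 19), of which 32 were among the 122. Testing only genes with a mean of at least 5 gave 96 higher and 26 in the interaction. The interaction count was 22 with array weights, 17 with each array centred on its median, 19 with a trended and robust spread, 3 when probe sets of one gene were averaged and 10 with the muscle mean as a covariate. Leaving out 1 array gave 50 to 102 genes called, 27 to 43 higher, 23 to 60 lower and 4 to 11 in the interaction. Leaving out the 3 arrays with most muscle signal, an alternative chosen after seeing the data, gave 35 (17 higher and 18 lower). This fit dropped WT replicate 2 and KO replicates 1 and 2, so KO replicate 3 alone stood against WT replicates 1 and 3. The spread between KO arrays at room temperature could not enter it, so its count cannot show how far the calls depend on muscle. Its sign changes given below rest on that KO array. All 122 genes kept their direction in every fit, of which the fit of genes with a mean of at least 5 tested 75. Genes that were not called changed sign as follows. With the muscle covariate Acta1 was at -0.69, Ckm at -0.60, Gm15998 at -0.036 and Lipe at 0.068. Without the 3 muscle-rich arrays Acta1 was at -0.67, Ckm at -0.29, Cd4 at -0.33, Adam15 at -0.023, Fasn at -0.067, Gm15998 at -0.12 and Pnpla2 at 0.0057. With probe sets averaged Adam15 was at -0.085. With centred arrays Gys1 was at 0.040, Lipe at 0.038 and Pnpla2 at 0.041; with array weights Pnpla2 was at 0.00061 and Thrb at -0.0016; with cyclic loess Thrb was at -0.024. Leaving out 1 array, the range was Alb -0.035 to 0.31, Fgf21 -0.11 to 0.22, Gm15998 -0.095 to 0.14, Gys1 -0.039 to 0.041, Lipe -0.028 to 0.012, Pnpla2 -0.041 to 0.032, Prdm16 -0.079 to 0.44 and Thrb -0.075 to 0.07. The labels do not say whether replicate numbers pair the samples. Deviations of same-numbered arrays correlated at -0.175, 0.14 and 0.451. Those of differently numbered arrays ran from -0.56 to 0.555, so these correlations cannot settle the pairing. With the replicate number as a block 91 genes passed (39 higher, 52 lower; 7 in the interaction), 83 of them among the 122.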

Other observations

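The largest rises among genes outside the naming rule were in 2 transcripts with clone names, chosen after their values were seen. D830024N08Rik was 2.75, 2.63 and 2.08 in WT against 5.38, 6.17 and 5.66 in KO (3.25 ± 0.36, limma adjusted p = 0.00155), and D630039A03Rik was 1.68, 1.72 and 1.97 against 4.08, 4.13 and 4.01 (2.28 ± 0.20, adjusted p = 0.000211). Both passed without any single array. Among 1394 measured olfactory and vomeronasal receptor genes 6 were called lower (0.43%, against 0.284% of all genes, so near the background) and 0 higher. Their signals lay near the array background, as for Vmn1r148 at 3.71, 3.80 and 4.07 in WT against 2.38, 2.27 and 2.27 in KO. Of the 122 called genes 17 of the higher ones averaged under 4 in WT and 20 of the lower ones under 4 in KO.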
